A study of Mus musculus with 12 samples.

Results

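The microRNAs of the Sfmbt2 intron repeat cluster were followed in small RNA libraries from the livers of 8-week-old CD1 mice. Members were the mature microRNAs of the miR-297, miR-466, miR-467 and miR-669 families, taken by name from the deposited count table. The rule gave 150 of 2044 rows, and summing rows that share a name left 80 of 1906 names. Each row is a mature microRNA at 1 position of the mm9 mouse genome. The livers came from 6 male and 6 female mice of the outbred Crl:CD1(ICR) stock with no treatment in the labels, and each flash-frozen liver gave 1 library. The labels number the livers within a sex and name no litter or batch, so that p-values measure the spread between these 12 samples. The study asked which microRNAs differ between the sexes in liver.

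Sfmbt2 encodes a Polycomb group protein. In mice the gene is imprinted and expressed from the paternal allele in extraembryonic tissues, and a rodent-specific array of microRNA hairpins lies in one of its introns. The microRNAs are cut from the transcript of the host gene, each hairpin yielding a 5p and a 3p arm, and the array is best known for its high expression in trophoblast and its requirement in placental growth. In adult liver the members are scarce.

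Of the 150 rows, 139 lay on mm9 chromosome 2 between positions 10388304 and 10439867, a stretch of 51.6 kb in which the table held 0 rows of any other microRNA. The other 11 rows lay on 7 other chromosomes. In these terms 69 names stood on chromosome 2 alone, 10 names elsewhere alone, and 1 name, miR-297a-5p, had 3 rows on chromosome 2 and 1 on chromosome 7. GENCODE M21, on a later build and matched by gene name, listed 71 microRNA genes of the 4 families on chromosome 2. All 71 lay inside Sfmbt2 on its strand, and 0 overlapped an annotated exon of it. The label of the cluster therefore holds for the rows on chromosome 2 and not for those elsewhere.

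The rows outside chromosome 2 were close to undetected. They gave 3 counts in all 12 livers together, 1 each for miR-466q, miR-466j and miR-467f, against 3388 counts for the rows on chromosome 2. RefSeq held mature sequences for 8 of the 80 names, all 8 from outside chromosome 2. At 0 counts stood 8 of the 11 rows elsewhere and also 23 of the 139 rows on chromosome 2. The 8 sequences, the only ones held, are shown with GRCm38.p6 positions. The seed, bases 2 to 8 from the 5′ end, is in capitals.
miR-466q, chr3:28419988-28420007, plus strand: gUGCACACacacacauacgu
miR-466k, chr3:85467396-85467418, plus strand: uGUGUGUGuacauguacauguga
miR-669n, chr3:115979905-115979924, plus strand: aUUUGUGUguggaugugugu
miR-467g, chr5:34732872-34732892, minus strand: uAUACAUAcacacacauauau
miR-467h, chr9:115381898-115381919, plus strand: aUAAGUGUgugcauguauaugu
miR-466j, chr10:60960802-60960824, plus strand: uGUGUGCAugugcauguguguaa
miR-467f, chr11:69635419-69635439, minus strand: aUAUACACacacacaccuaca
miR-466i-3p, chr13:17747552-17747573, plus strand: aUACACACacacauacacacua
The 8 sequences had 8 different seeds, so that no pair of them formed a seed group. They were built largely of alternating bases. An unbroken run of the units UG, GU, AC or CA of at least 10 bases was sought on the strand shown. It was present in 3 of the 8 (miR-466q, miR-467f and miR-466i-3p). Of all 1738 mature sequences of the RefSeq table, 6 had such a run (0.345%), these 3 included. That table held none of the member names on chromosome 2, so the share leaves out the array itself. In GENCODE miR-466q lay in an intron of Tnik, and miR-669n, miR-467g, miR-467f and miR-466i lay antisense to Slc30a7, Grk4, Fxr2 and Cdk13.

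Total counts per library lay between 2953955 and 5516430. Levels are given as CPM, counts per 1000000 of a library's size after TMM scaling. Female 2 and female 6 stood apart from the other 10 livers in the level of the cluster, and the differences between the sexes that could be recomputed are given with and without them. A detection limit of 3 counts was worth 0.53 to 1.04 CPM depending on the liver, and it covers counting error only. The hepatocyte markers miR-122-5p, miR-192-5p and miR-194-5p together held between 397430 and 421736 CPM in male livers and between 417887 and 469695 CPM in female livers, so that markers of the labelled tissue were abundant in all 12.

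The cluster contributed 3391 of 48087382 counts, or 0.00705%. Of the 80 names, 54 had at least 1 count and 26 had 0. Only 8 reached 100 counts over all livers, 19 had between 10 and 99, and 27 had fewer than 10. miR-467a-5p, whose family includes a reported repressor of thrombospondin 1, held 28.1% of the members' counts. Even so it ranked 244 among the 419 names tested. A filter on low counts (filterByExpr of edgeR) passed 6 of the 80 names, which held 69% of the members' counts. They were miR-467a-5p, miR-467c-5p, miR-467e-5p, miR-669a-5p, miR-669a-3p and miR-669c-5p. The filter asked for about 2.50 CPM, here taken before TMM scaling, in at least 6 livers. It was met in all 6 livers of each sex by miR-467a-5p, miR-467e-5p and miR-669c-5p. The others passed more through female livers, miR-669a-3p in 4 male and 6 female livers, miR-669a-5p in 3 male and 6 female livers and miR-467c-5p in 2 male and 5 female livers.

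Along chromosome 2 the rows formed 72 hairpin loci when rows within 100 bases of each other were joined. These were 29 loci of miR-669, 24 of miR-466, 14 of miR-467 and 5 of miR-297. The order miR-467, miR-466, miR-669 recurred 12 times, with a median of 2457 bases between successive starts of this triplet. The 12 triplets carried 58.6% of the counts on chromosome 2, and 66 of the 72 loci had at least 1 count. Single rows differed widely. miR-669c-5p (mm9 chromosome 2, 10430946 to 10430967), a microRNA reported as raised in livers of old mice, gave 417 counts from 1 row. It was followed by miR-467e-5p (10427358 to 10427379) with 345 counts and by miR-467c-5p (10395568 to 10395589) with 203 counts, each also from 1 row.

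**Figure D1:**
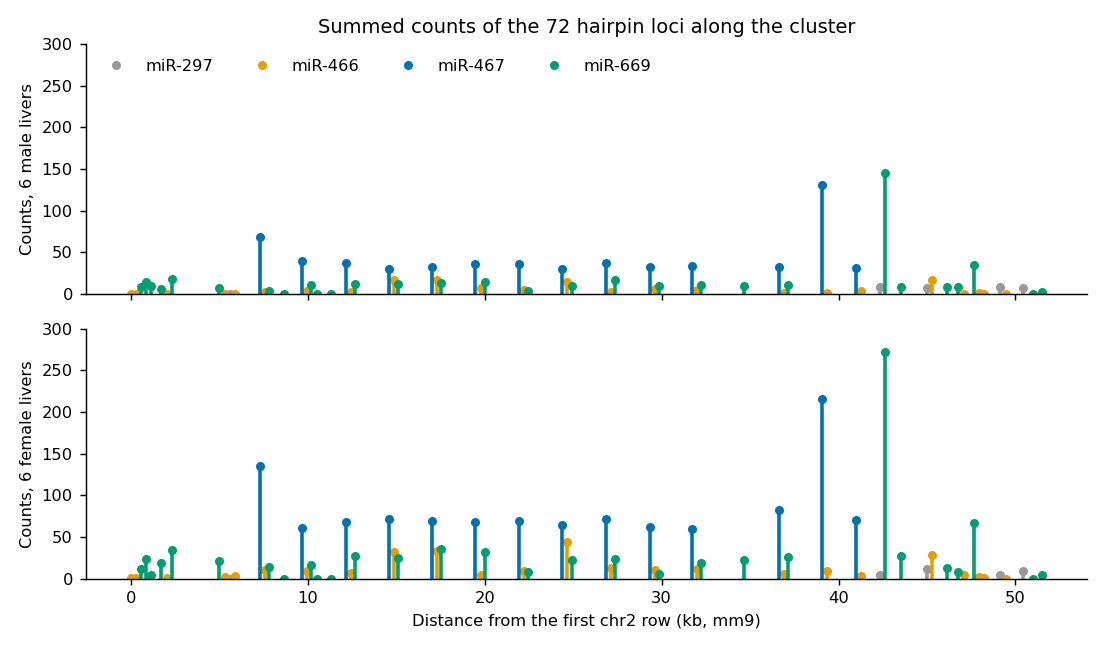
Counts at each of the 72 hairpin loci (y axis, both arms, summed over 6 male livers above and 6 female livers below) against the distance in kb from the first chr2 row (x axis, mm9), coloured by family. The tallest stems in both panels are miR-669c, miR-467e and miR-467c, and the miR-467a copies form a row of near-equal stems between them.

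Where a name had several rows, its counts were nearly evenly spread over them. The 10 rows of miR-467a-5p gave between 86 and 102 counts each, of 954 in all, and the chi-square against an equal split, divided by its degrees of freedom, was 0.327. The 12 rows of miR-669a-5p gave 11 to 21 counts and the 11 rows of miR-669a-3p gave 14 to 31, with values of 0.582 and 1.26. The copies thus could not be told apart, and levels are given per name. Names with several rows held 54.8% of the members' counts. The families are made of near-identical repeats, so that reads may also have been divided between names, which was not tested.

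The arms were used differently by the 4 families, and the families ranked in the same order by 5p share in both sexes. In miR-467 the 5p arm took 1701 of 1776 counts, 95.8% with a 95% Wilson interval of 94.7% to 96.6%. The share was 95.2% in male livers and 96.1% in female livers. In miR-669 the 5p arm took 77% (74.5% to 79.3%), in miR-466 46.6% (41.4% to 51.8%) and in miR-297 19.7% (11.6% to 31.3%). For miR-466 the interval spanned 50% in male livers (33.5% to 52.0%) and in female livers (42.2% to 54.6%). Within a family the hairpin names differed too. miR-669c had 417 counts on the 5p arm and 0 on the 3p arm, whereas miR-669a had 193 on the 5p arm and 229 on the 3p arm, a 5p share of 45.7% (41.0% to 50.5%). miR-466c carried 77.2% of its counts on the 5p arm (70.1% to 83.1%) and miR-466b 27.4% (19.8% to 36.5%). By sex, miR-466b had 12.1% in male livers (4.82% to 27.3%) and 34.2% in female livers (24.4% to 45.7%). The share of miR-466c was higher in male livers, 83.7% (71.0% to 91.5%) beside 74.3% in female livers (65.4% to 81.6%). Of the 18 hairpin names with at least 20 counts on both arms together, 13 had the whole interval above 50%, 3 below it (miR-297a, miR-466b and miR-466d) and 2 across it (miR-669a and miR-669f). Without female 2 and female 6 the 5p shares were 95.7% for miR-467, 78.1% for miR-669, 45.7% for miR-466 and 16.7% for miR-297. All these intervals pool livers and cover counting error alone.

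**Figure D2:**
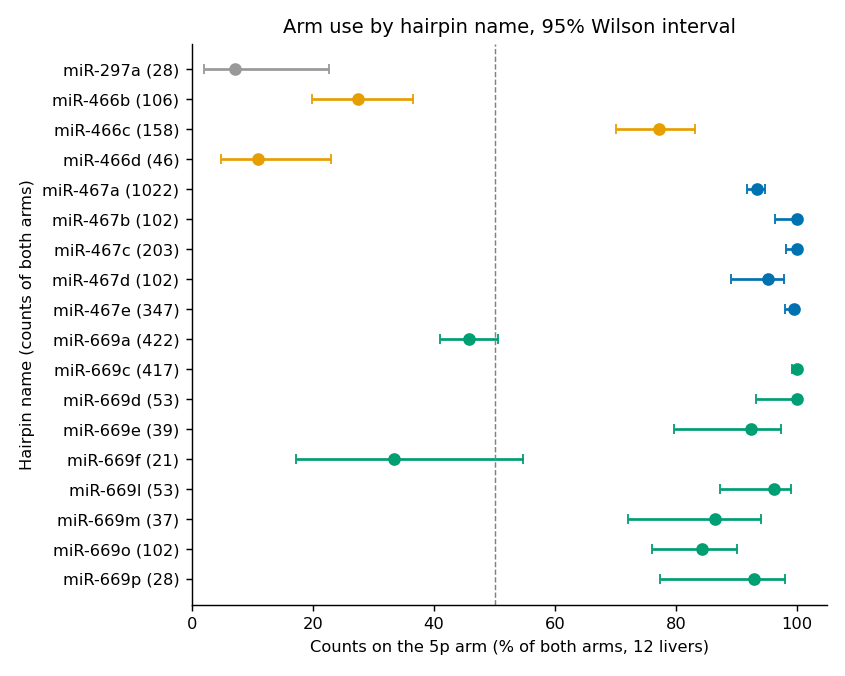
Share of counts on the 5p arm (x axis, % of both arms, 12 livers pooled, bars are 95% Wilson intervals) for the 18 hairpin names with at least 20 counts (y axis, counts in brackets), coloured by family. All 5 miR-467 names sit above 90%, while miR-297a, miR-466b and miR-466d sit below 50%.

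In total level, 2 female livers stood apart from the remaining 10. The summed members had 202, 264, 177, 182, 223 and 109 counts in male livers 1 to 6, and 251, 607, 238, 276, 170 and 692 counts in female livers 1 to 6. In CPM the sum averaged 50.4 ± 9.87 in male livers and 86.7 ± 44.2 in female livers (SD, n = 6 each). The lowest, median and highest values were 37.6, 49.99 and 65.4 CPM in male livers and 49.3, 66.3 and 160 CPM in female livers. Female 2 and female 6 had 160 and 122 CPM, 2.92 and 2.23 times the median of the other 10 livers (54.7 CPM), and they held 38.3% of all counts of the members. The other 4 female livers had 49.3 to 71.2 CPM and overlapped with the male range. No test was made on the sum, since its members were chosen. In bulk tissue, fewer cells that make these microRNAs and less of them per cell cannot be told apart.

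**Figure D3:**
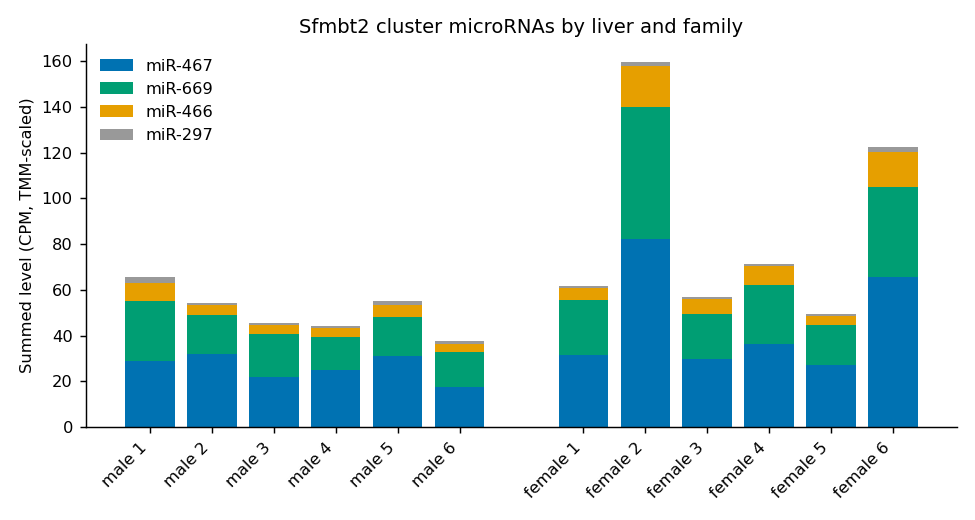
Summed level of all 80 names in each liver (y axis, TMM-scaled CPM), with male livers left and female livers right and the 4 families stacked. Female 2 and female 6 reach 160 and 122 CPM, and the remaining 10 livers lie between 37.6 and 71.2 CPM.

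High values in these 2 livers were found in much of the array, but not in all of it. All 6 tested members had their 2 highest values in female 2 and female 6, as did 8 of the other 413 tested names (1.94%). The pair was picked for its level of the cluster and the members partly share reads, so these counts are a description only. Among the 21 untested members with at least 10 counts the same held for 9. The 5p rows of miR-467 made up 49.3% of the members' counts in female 2 and 51.6% in female 6, where all 12 livers lay between 41.6% and 56.1%. The 5p rows of miR-669 made up 28.3% in female 2 and 23.1% in female 6, and female 6 was the lowest of the 12 livers, which reached up to 34.5%. The miR-466 rows made up 11.2% in female 2 and 12.3% in female 6, in the upper part of a range from 8.24% to 12.4%. Of the 61 counts of the miR-297 rows, male livers held 31 and female livers 30. This family was highest in male 1, at 2.27 CPM, with 1.84 CPM in female 2 and 2.12 CPM in female 6, while the other 4 females had 0.58 to 0.774 CPM.

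For the miR-467, miR-669 and miR-466 rows, the gap between the sexes lay mostly in these 2 livers. The pair was picked for its high level of the cluster, so a smaller gap without it was built in. The miR-467 rows averaged 26.0 ± 5.66 CPM in male livers and 45.3 ± 23.0 CPM in female livers (SD, n = 6 each), and 31.1 ± 3.87 CPM in the 4 females other than female 2 and female 6. The miR-669 rows averaged 18.2 ± 4.22 CPM in male livers and 30.8 ± 15.2 CPM in female livers, and 21.9 ± 3.78 CPM in the same 4 females. The miR-466 rows averaged 4.80 ± 1.74 CPM in male livers and 9.46 ± 5.66 CPM in female livers, and 5.97 ± 1.80 CPM in the same 4 females. In these rows female 2 had 17.9 CPM and female 6 had 15.02 CPM. The scarce miR-297 rows went the other way, with 1.40 ± 0.513 CPM in male livers and 1.13 ± 0.67 CPM in female livers. Their mean was 0.701 ± 0.084 CPM in the same 4 females.

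By their median deviation over the other microRNAs, both livers lay near the other females. Over the 413 other tested names the median absolute log2 deviation from the other females, with a pseudocount of 0.5 CPM, was 0.156 in female 2 and 0.154 in female 6, where all females lay between 0.149 and 0.194. The same measure among males ran up to 0.345 in male 1 and 0.307 in male 6. The summed levels of 9 lists of cell type markers lay within the range of the other 10 livers, males included, in 17 of 18 values. The exception was the list for immune cells in female 6, with 1168 CPM, where the other 10 livers had 545 to 1133 CPM and female 2 had 967 CPM. Beside the other females alone, more values lay outside. The hepatocyte list had 417887 and 421304 CPM in female 2 and female 6, beside 424134 to 469695 CPM. Also lower were the erythroid list in female 2 (1776 beside 1838 to 2631 CPM) and, in female 6, the nervous system list (1.77 beside 2.45 to 22.4 CPM). The list for stellate cells, fibroblasts and smooth muscle in female 6 (14470 beside 14881 to 17325 CPM) was lower too. By sex the list for immune cells spanned 545 to 1043 CPM in male livers and 860 to 1168 CPM in female livers. Of its 6 markers 1 was called, miR-142a-5p (log2 fold change -0.47, adjusted p = 0.0256). The list for stellate cells, fibroblasts and smooth muscle spanned 10001 to 15645 CPM in male livers and 14470 to 17325 CPM in female livers, with 1 of 5 called, miR-143-3p (-0.34, adjusted p = 0.0263). miR-143-3p made up most of this sum, with means of 10612 CPM in male and 13396 CPM in female livers. miR-145a-5p (0.07) and miR-199a-5p (0.08) had positive log2 fold changes, and miR-199a-3p (-0.18) and miR-214-3p (-0.11) negative ones, none called. No marker of the 2 lists was at 0. The part of these cells in the level of the cluster was not tested.

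Between the sexes, miR-669a-3p fell in males, and the other 5 tested members did not pass the test. It was called by edgeR's quasi-likelihood test at a Benjamini-Hochberg adjusted p of 0.05 over all 419 names. The call of 1 of 6 members lower in males stood beside 8.59% of all tested names called lower in males, 8.35% called higher and 16.9% called in either direction, 71 names in all (47 without male 3). All 6 members had negative log2 fold changes, with a median of -0.79, where 222 of the 419 tested names were negative and their median was -0.02. miR-669a-3p, miR-669a-5p and miR-467c-5p passed the filter more through female livers, and the members may share reads. The common sign, the call of 1 of 6 and the counts of members at an unadjusted p are therefore a description only. Without female 2 and female 6 the 6 values were still negative, with a median of -0.29. As the highest livers in all 6 members, their removal had to bring the values nearer to 0. Without adjustment 5 of the 6 passed a p of 0.05, miR-467e-5p being the exception, and 14.1% of all names did so with lower values in males. Without these 2 livers 1 of the 6 did. In 0 of the 6 members were the sexes without overlap, which held with males lower for 3.58% of all tested names.

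miR-669a-3p, an arm of the miR-669a hairpins that are known in mouse heart progenitors for repressing MyoD, had 13, 13, 8, 11, 15 and 8 counts in male livers 1 to 6. In female livers 1 to 6 it had 21, 40, 16, 20, 12 and 52 counts. Female 2 and female 6 were far above all others, 2 further females lay above every male, and the remaining pair overlapped with the males. The mean was 3.01 ± 0.788 CPM in male livers and 6.22 ± 2.93 CPM in female livers (SD, n = 6 each), a log2 fold change of -1.06 with a standard error of 0.30 (edgeR adjusted p = 0.0304). Single livers ended the call: the adjusted p was 0.0601 without male 2, 0.0734 without male 3, 0.056 without male 4, 0.055 without male 6, 0.0693 without female 2 and 0.0713 without female 6. Without both female 2 and female 6, a comparison chosen after the data were seen, the log2 fold change was -0.57 (adjusted p = 0.176). Over all its alternatives the adjusted p lay between 0.0206 and 0.176.

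**Figure D4:**
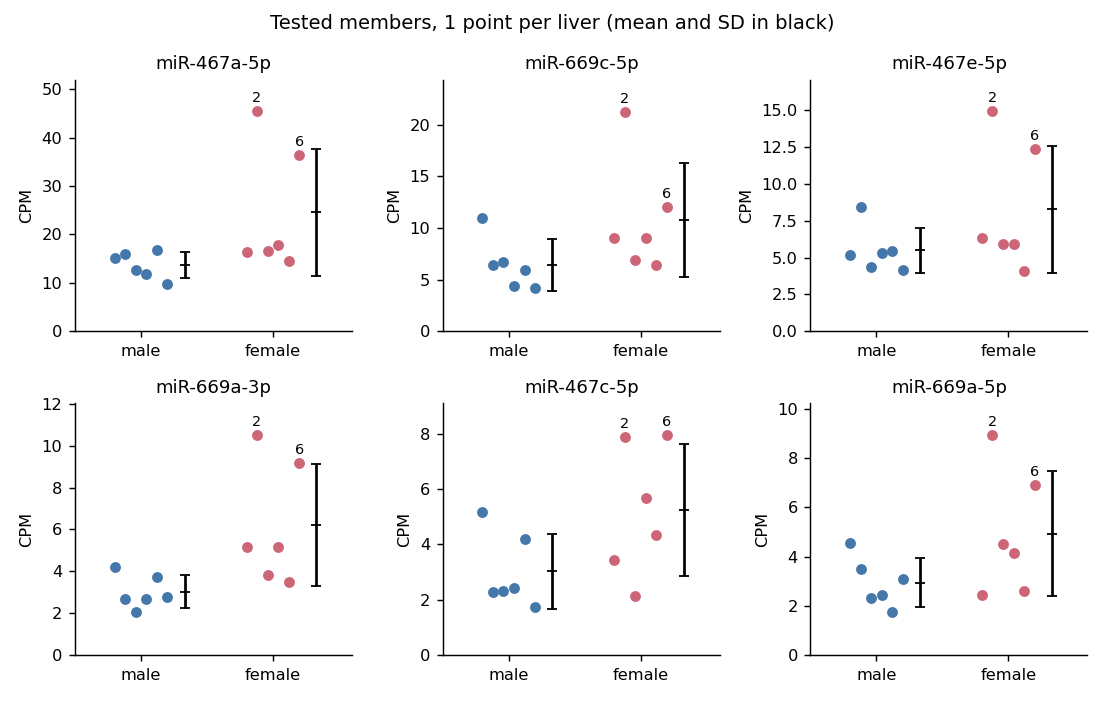
Level of each tested member in every liver (y axis, CPM, 1 panel per member), male livers left and female livers right, with the mean and SD in black beside the points and female 2 and female 6 numbered. In all 6 panels the livers numbered 2 and 6 are the highest, and the sexes overlap.

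miR-467a-5p, the most abundant member, ranged from 9.67 over a median of 13.9 to 16.8 CPM in male livers and from 14.5 over a median of 17.2 to 45.5 CPM in female livers. Leaving aside female 2 and female 6, the females reached at most 17.8 CPM, and the sexes overlapped over a narrow band. Males had a log2 fold change of -0.84 (standard error 0.30, edgeR adjusted p = 0.0695). It passed with DESeq2 (adjusted p = 0.0402), with scaling by total counts alone (0.0425) and without female 5 (0.0487). Without female 2 and female 6 it was -0.27 (adjusted p = 0.407), the highest adjusted p among its alternatives.

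The tested single-row members of miR-467 showed the same livers on top. miR-467e-5p ranged from 4.14 over a median of 5.26 to 8.44 CPM in male livers and from 4.06 over 6.16 to 14.98 CPM in female livers. Its log2 fold change of -0.59 (standard error 0.31, edgeR adjusted p = 0.245) was -0.03 without female 2 and female 6. miR-467c-5p ranged from 1.73 over 2.37 to 5.18 CPM in male livers and from 2.14 over 5.01 to 7.95 CPM in female livers (log2 fold change -0.81, standard error 0.35, adjusted p = 0.144). Without the same 2 females its value was -0.38. The sexes overlapped in both members.

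miR-669c-5p had the highest count of any single row. It ranged from 4.14 over a median of 6.16 to 11.01 CPM in male livers and from 6.38 over 9.04 to 21.3 CPM in female livers. Female 2 alone lay far above the rest here, and male 1 lay above 4 of the 6 females. The log2 fold change was -0.75 (standard error 0.32, edgeR adjusted p = 0.132), and it passed without male 1 (-0.97, adjusted p = 0.0422). Without female 2 and female 6 it was -0.31, and the adjusted p over its alternatives lay between 0.0422 and 0.571. miR-669a-5p, the other arm of miR-669a, ranged from 1.73 over 2.77 to 4.53 CPM in male livers and from 2.45 over 4.33 to 8.94 CPM in female livers (log2 fold change -0.77, standard error 0.34, adjusted p = 0.149), and was -0.26 without the 2 females.

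**Figure D5:**
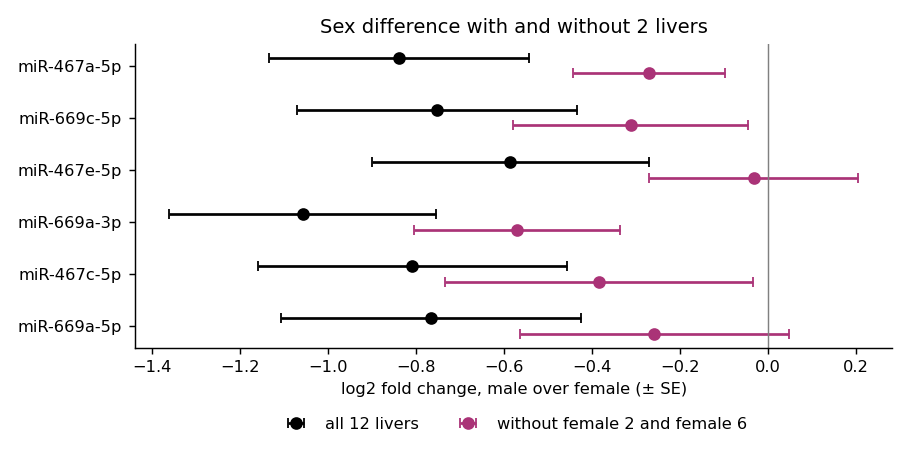
log2 fold change of male over female for the 6 tested members (x axis, points with standard errors as bars), for all 12 livers in black and without female 2 and female 6 in purple. Every purple point lies nearer to 0 than its black one, and the adjusted p was above 0.05 for all 6 without these livers. These were the 2 highest livers in all 6 members, so a shift toward 0 was built into leaving them out.

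Most of the cluster was too scarce to be tested by this filter. Of the untested members, miR-466c-5p had 41 counts in male livers and 81 in female livers, 51 of the 81 in female 2 and female 6. In CPM its mean was 1.82 in male livers and 1.90 in the other 4 females. miR-467b-5p, which is reported to repress lipoprotein lipase in mouse cells, had 30 counts in male livers and 72 in female livers, 39 of the 72 in female 2 and female 6. Its mean was 1.23 CPM in male livers and 2.07 CPM in the other 4 females. When every name with at least 1 count was fitted, 22 of 27 members with at least 10 counts had negative log2 fold changes, beside 355 of 707 names of that abundance (50.2%). The median of these 27 was -0.73, and that of the 707 was -0.000181. Without female 2 and female 6, 15 of the 27 members were negative with a median of -0.04, beside 336 of the 707 names with a median of 0.03. With all 12 livers none of the members passed adjustment in the edgeR fit (lowest adjusted p = 0.0647, miR-669a-3p), beside 4.18% of all 1292 names, and DESeq2 was not run without a filter. An unadjusted p of 0.05 was passed by 14 of the 54 members with counts, all 14 lower in males, beside 6.66% of the 1292 names lower and 7.51% higher in males. Without the 2 livers it was passed by 2 members. Some of the 14 had fewer than 10 counts in all livers. The members may share reads, so these counts and those of negative values are a description only. The 5 members with positive values were miR-297a-3p, miR-297c-3p, miR-669b-5p, miR-669f-3p and miR-669p-5p, each with at most 26 counts in all livers, and were named after their values were seen. In the authors' deposited table, which compares single rows, 0 of the 150 member rows had an FDR under 0.05, beside 2.35% of all rows. There, 11 of the 150 rows passed an unadjusted p of 0.05, all 11 with lower values in males. The share that passed among all 2044 rows was 7.14%, and 3.38% passed with lower values in males. The authors' comparison includes female 2 and female 6, and 3 of the 11 rows are copies of miR-467a-5p.

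The Dlk1-Dio3 cluster on chromosome 12, the other large imprinted microRNA array of the mouse, was highest in another liver. Its 116 names summed to 456 to 2495 CPM in male livers and 711 to 1292 CPM in female livers, with the highest value in male 6. Female 2 and female 6 had 943 and 1226 CPM, inside the range of the other livers. Of its 44 tested names, 0 were called by edgeR in either direction (3 at an unadjusted p of 0.05), 35 had positive log2 fold changes, and the median was 0.25. Some of its names held the same values, such as miR-136-3p and miR-3071-5p, so the sum and these counts include some reads more than once. In 0 of the 44 were female 2 and female 6 the 2 highest livers. Whether the sex difference itself differs between the 2 clusters was not tested.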

How the data were processed

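Small RNA libraries were made with a commercial strand-specific kit from total liver RNA, per the labels' protocols. Trim Galore, Bowtie2, bedtools and edgeR were used upstream with the build mm9, per the submitters' processing notes. Aligner settings, the treatment of reads with several positions and whether counting used strand were not given in the sources used here. Deposited by the authors were raw read counts per mature microRNA row for each liver, with their own edgeR log2 fold changes, average log2 CPM, p-values and FDR in the same file, per the file headers. 0 of the 38 pairs of names with overlapping positions involved a member.

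Rows of a name were summed. Counts were scaled by TMM factors (trimmed mean of M values, edgeR), filtered with filterByExpr by sex and compared by the quasi-likelihood test of edgeR 4.0.16 (glmQLFit and glmQLFTest, run in R 4.3.3) over all 12 livers without covariates, with adjustment over all 419 names. Standard errors were derived from the F statistic. The fit was checked on simulated data. Fold changes are male over female. DESeq2 1.42.0 served as an alternative. All members that passed the filter are named, with untested ones of at least 100 counts. Members, marker lists and tests were chosen with earlier results of these data known.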

Additional observations from a re-analysis of the deposited data

Results flagged for a closer look

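Within each sex, the highest and the lowest liver of the 6 tested members and of their sum were examined by Dixon's ratio at the 95% level, in 14 groups of 6 livers. Chance alone marks about 1 in 20 such groups, and 2 were marked. miR-467e-5p in male 2, at 8.44 CPM, lay above the next male at 5.44 CPM by more than the criterion allows, with a gap of 0.699 of the range. miR-669c-5p in male 1, at 11.01 CPM, lay above the next male at 6.70 CPM, with a gap of 0.627 of the range. Female 2 and female 6 were not marked. The ratio sets the highest liver against the next one, so that 2 high livers in a group can hide each other. For the sum, female 2 had a gap of 0.338 of the range with female 6 next to it. The ratio thus could not decide whether this pair stood apart. miR-669c-5p in female 2 came close, with a gap of 0.622 of the range and just under the limit.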

How the results depend on the processing

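All 6 tested members kept negative log2 fold changes in every alternative that gave them a value, and the difference of the summed level, -36.4 CPM (male minus female), stayed negative in all 17 alternatives, between -43.9 and -9.28 CPM, the last without female 2 and female 6. The number of members called was 1 and changed easily. It was 2 when total counts were the only scaling and 2 by DESeq2, in both miR-669a-3p and miR-467a-5p. It was 0 without a filter on low counts, 0 among names with a mean of at least 10 CPM (1 member left), 0 with every locus as a feature of its own and 0 with the largest row for each name (3 members left in each), and 0 without female 2 and female 6. Leaving out each liver in turn gave 0 to 2. The number of all microRNAs called was 71, between 47 and 82 with single livers left out, and 36 without female 2 and female 6, which leaves 10 livers. Scaling by total counts put the median over all tested names at -0.12 (log2), where TMM scaling had -0.02, and its calls were 26 higher and 58 lower in males, against 35 and 36.

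The replicate block, with the labels' numbers as pairs, gave 48 calls in all and 0 members (miR-669a-3p, adjusted p = 0.0725). The same-numbered livers correlated between -0.13 and 0.30 in their deviations, and 0 of 6 males correlated best with their own number. No pairing was seen, but with so few livers a shared litter or batch could have been missed. Low counts limit all members: 74 of 80 could not be tested.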

Other observations

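The 8 tested names outside the cluster whose 2 highest livers were also female 2 and female 6 were miR-130a-5p, miR-181a-5p, miR-181a-1-3p, miR-205-5p, miR-32-5p, miR-34a-5p, miR-374b-3p and miR-374c-5p. They were picked out after their values were seen, among 413 names examined, and miR-374b-3p and miR-374c-5p held the same values. Among the untested members with at least 10 counts, the 9 with this pattern were miR-297b-5p, miR-466b-3p, miR-466c-5p, miR-466p-3p, miR-467a-3p, miR-467d-5p, miR-669d-5p, miR-669e-5p and miR-669o-3p.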
